A study of Sus scrofa with 67 samples.

Results

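A set of 54 genes of the 25322 in the count table fell at least 4-fold in the endometrium between day 0 and day 9 of the oestrous cycle of gilts, moved less than 2-fold in the ovary and the oviduct, and stood again at no less than 50% of its day 0 level in the endometrium on day 15. The level is the count divided by the total of the library and given as CPM, the usual scale for libraries of unequal depth. Members were selected on measured levels. The mean CPM of a tissue and day was taken plus 1. The ratio of day 9 to day 0 had to be at most 0.25 in endometrium and between 0.5 and 2 in ovary and oviduct, and that of day 15 to day 0 at least 0.5 in endometrium. In all, 235 genes fell this far in the endometrium, whatever they did elsewhere, and 1 gene was left out by name. Among the members, 40 had a symbol.

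The animals were cycling crossbred (Landrace × Yorkshire) gilts of 6 to 8 months, untreated, with day 0 the onset of oestrous behaviour. Endometrium freed of myometrium, the ampulla of the oviduct and a whole ovary were collected at surgery every 3 days from day 0 to day 18, and polyadenylated RNA was sequenced. The 66 libraries made 21 groups by tissue and day, 2 to 4 in each, and each day was a different set of gilts. Total counts were between 8962103 and 13442083 per library (median 10770754.5), at which 3 counts were worth 0.223 to 0.335 CPM.

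After ovulation the corpora lutea secrete progesterone, which prepares the endometrial glands, stroma and vessels for an embryo. When no embryo is present, prostaglandin from the endometrium brings the corpora lutea to regress, progesterone is withdrawn, and growing follicles supply oestrogen until the next oestrus. The endometrium carries receptors for both steroids and is remodelled at each turn of the cycle, in its epithelium, stroma, vessels and resident leukocytes.

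Days 0, 9 and 15 of the endometrium and days 0 and 9 of the other tissues chose the genes, so the values of those days are a description. In each of the 54 members every day 9 library lay below every day 0 library, as in 32.8% of the 15089 genes tested in endometrium, and the choice itself used these days. Just inside the limit of 0.25 were RET, with a ratio of 0.248, and ENSSSCG00000006525, with 0.2499, and just outside were ENSSSCG00000029257 (0.251) and MYO18A (0.254). At the day 15 limit, MATN4 (0.5002) and HEY1 (0.518) were in, and ROR2 (0.489) and FAP (0.471) were out. The membership was sensitive to the scale, and with a pseudocount of 0.1 in place of 1 the rule found 86 genes, 39 of them among the 54.

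Libraries that stood apart bear on what follows. On day 15 the median member was at 183%, 141% and 168% of its day 0 mean in libraries 1, 3 and 4 but at 28.5% in library 2, which was the lowest of the 4 in 46 of 54 members and in 31.8% of all genes at 1 CPM or more. Across 14446 genes, that library correlated at r = 0.983 with the mean of day 12 and at 0.913 with the mean of the other libraries of its own day (genes are not independent replicates). Without it the rule found 62 genes, all 54 among them, and the median level on day 15 was 182% of day 0 rather than 144%. Library 2 of day 12 was the lowest of its day in 41 members, and library 3 of day 3 in 42, against 30.6% and 41.7% of all genes. In the ovary, library 1 of day 12 held 7828 CPM of summed stromal markers, where the median of its group was 2010 CPM.

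**Figure D1:**
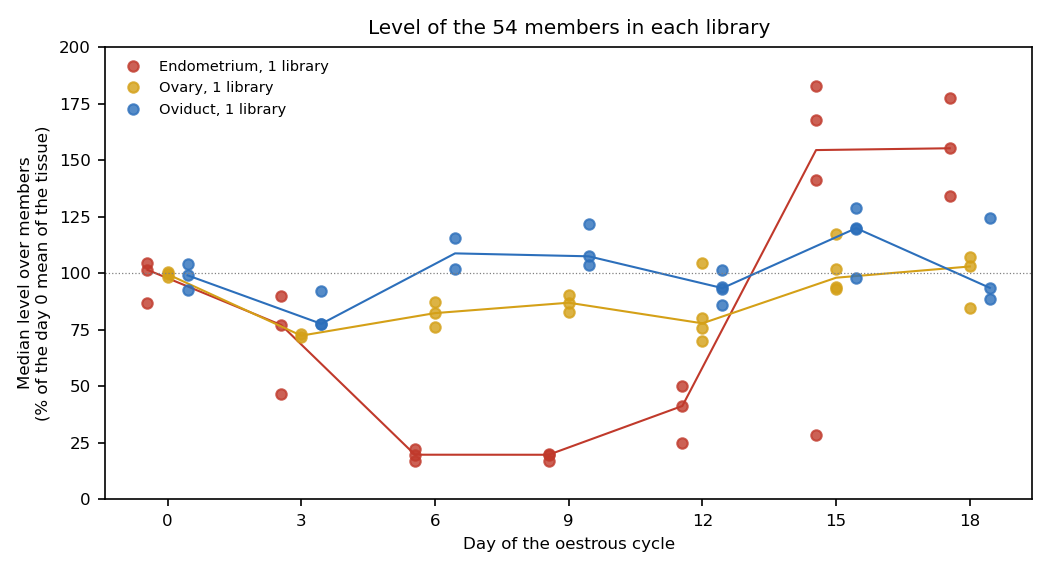
Median level of the 54 members in each library, as a percentage of the day 0 mean of the same tissue, against day of the cycle; each point is a library and the lines join the medians of the days. Endometrium libraries lay between 16.7% and 22.0% on days 6 and 9 and between 134% and 177% on day 18, with library 2 of day 15 at 28.5%, while ovary and oviduct libraries stayed between 69.8% and 129%.

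The median member of the endometrium was at 77.0%, 89.7% and 46.5% of day 0 in the 3 libraries of day 3. It was at 22.0%, 19.6% and 16.7% on day 6, and at 17.04%, 19.6% and 19.8% on day 9. On day 12 it was at 41.2%, 24.8% and 49.97%, and on day 18 at 177%, 134% and 155%. The low level was therefore present by day 6, the libraries of day 12 were spread between the low and the high level, and all 3 libraries of day 18 were above day 0. Of the 7 days, day 18 was the highest in 25 members, day 15 in 14, day 3 in 7, day 0 in 6 and day 12 in 2. The lowest was day 9 in 33, day 6 in 18 and day 12 in 3. Days 0, 9 and 15 chose the members, so this order is in part set by the choice. Among days 3, 6, 12 and 18 alone, the highest was day 18 in 45 members, day 3 in 7 and day 12 in 2. The lowest of these was day 6 in 47 and day 12 in 7, and the shares over all genes were not counted.

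The days that the choice did not use (3, 6, 12 and 18; 12 libraries per tissue) were tested with edgeR's quasi-likelihood test, and a gene was called at an adjusted p under 0.05 over all genes tested. All 54 members passed the filter on low counts in endometrium. From day 3 to day 6, 37 members were called lower, where 9.97% of the 15089 genes tested were, and 0 higher, where 8.91% were; the remaining 17 also had a log2 fold change below 0. The median log2 fold change was −2.10 (range −6.61 to −0.22), against −0.02 over all genes. BSPH1 and ENSSSCG00000022251 were at 0 counts in every day 6 library, so their fitted changes are no measure of size. With the second at the bound of its fold and the first, whose mean was under the level of 3 counts on both days, left out, the median was −2.07. In 46 members every day 6 library was below every day 3 library, as in 29.5% of all genes.

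From day 6 to day 12, 15 members rose, where 6.79% of all genes were called higher, and 0 fell, where 5.62% were called lower, and the median log2 fold change was 1.11 (1.11 also with the genes at 0 on day 6 at their bounds). All day 12 libraries were above all day 6 libraries in 26 members, as in 18.7% of all genes. The count rested on single libraries. It was 8 without library 1 or without library 2 of day 6, 23 without library 2 of day 12, and 24 with DESeq2.

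From day 12 to day 18, 37 members rose, where 9.14% of all genes were called higher, with a median log2 fold change of 2.10. Among them ENSSSCG00000002487 rose from a mean of 0.235 CPM, near 3 counts, so the size of its rise is not measured. Exactly 1 member fell (ENSSSCG00000030074), where 11.2% of all genes were called lower. All day 18 libraries were above all day 12 libraries in 42 members, as in 20.4% of all genes. Without the low library 2 of day 12, 31 members rose. Both the fall to day 6 and the rise to day 18 were called in 29 members, where 3.09% of all genes were called in both.

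Set against day 3, day 18 was called higher in 17 members (3.65% of all genes) and lower in 1 (ENSSSCG00000026123, 3.98% of all genes). The median log2 fold change was 1.23. In 28 members the libraries of day 18 all lay above those of day 3, as in 12.7% of all genes. The count was 5 without library 1 of day 3, 7 without library 3 of day 3, and 9 without library 1 of day 18. The most frequent course, in 21 members, was a called fall to day 6, no call to day 12, a called rise to day 18 and no call between days 3 and 18. In 4 members (SERPINB5, TRIM29, SLC39A2 and ENSSSCG00000008001) none of the 4 comparisons was called. The share of all genes with either course was not counted, and a step without a call is not a lack of change.

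**Figure D2:**
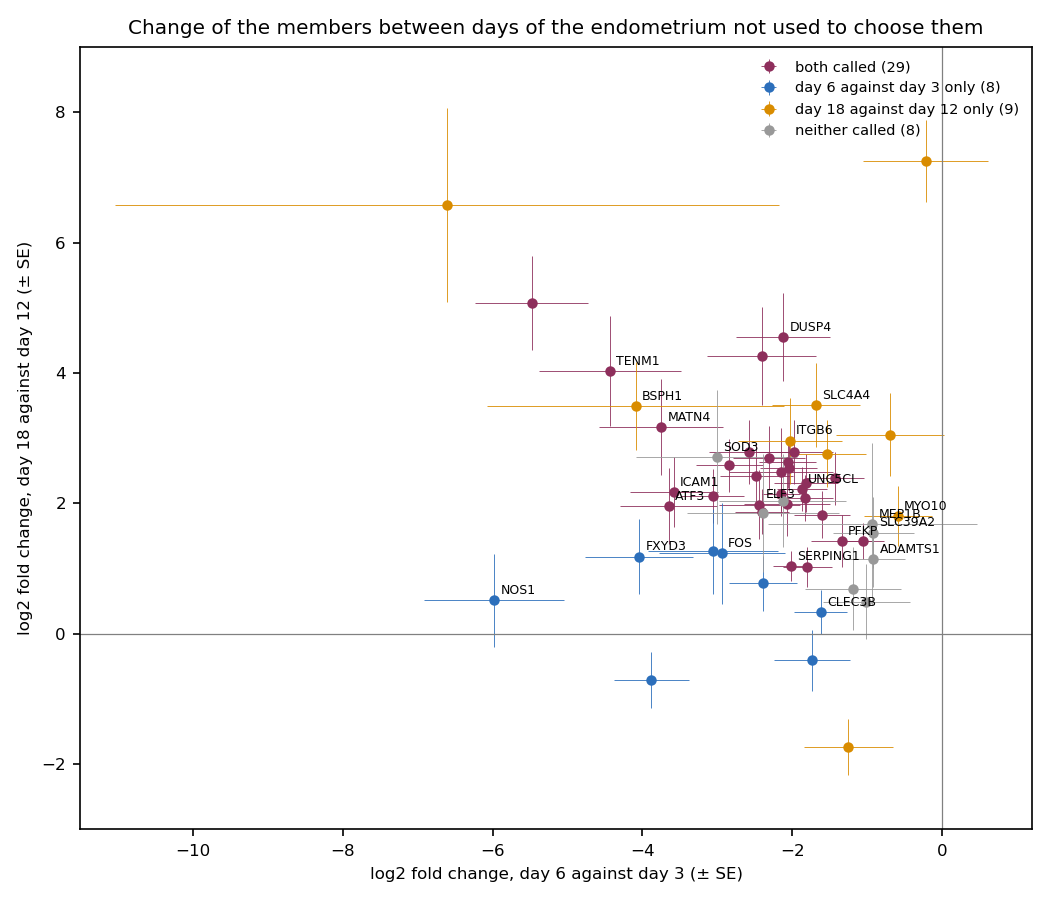
Log2 fold change of each member in the endometrium from day 3 to day 6 (horizontal) and from day 12 to day 18 (vertical), with standard errors of the edgeR fit; colours give the comparisons called at an adjusted p under 0.05 and the genes labelled are those of the naming rule. All 54 points lie left of 0 and 51 lie above 0, and 29 were called in both comparisons (3.09% of all genes). BSPH1 and ENSSSCG00000002487 were near or under 3 counts on days 3 and 6, so their horizontal positions do not measure a fall.

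Transcription factors, a MAP kinase phosphatase and the kinase PIM1 made up 8 members. Of these, 7 fell to day 6 and 7 rose from day 12 to day 18. Among all 54 members, 37 fell to day 6, 15 rose to day 12 and 37 rose from day 12 to day 18. Of all genes tested, 9.97%, 6.79% and 9.14% were called so. The groups by role, here and below, only order the description, and no difference between them was tested. ATF3 (ENSSSCG00000015595), a stress-induced factor of the CREB/ATF family, was at 35.7, 105 and 17.4 CPM on day 3 and at 3.48, 4.07 and 3.39 CPM on day 6. It was at 34.6, 18.2 and 26.5 CPM on day 12 and at 97.8, 48.1 and 176 CPM on day 18. The libraries of neighbouring tested days did not overlap, and the log2 changes were −3.65 ± 0.65 (SE), 2.81 ± 0.64 and 1.96 ± 0.58, with edgeR adjusted p-values of 0.0029, 0.016 and 0.034.

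DUSP4 (ENSSSCG00000015850), a phosphatase that switches off MAP kinases, had the largest called rise to day 18 under the naming rule. It was at 27.4, 28.6 and 18.6 CPM on day 3, at 4.01, 4.25 and 6.78 CPM on day 6, and at 9.07, 7.68 and 11.1 CPM on day 12. On day 18 it was at 470, 67.8 and 119 CPM, a log2 rise of 4.55 ± 0.67 over day 12 (edgeR adjusted p = 0.00098). The low level thus lasted through day 12, and day 18 also lay above every day 3 library (log2 change 3.27 ± 0.62).

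FOS (ENSSSCG00000002383), a subunit of the AP-1 factor, was at 45.03, 274 and 46.0 CPM on day 3 and at 20.3, 15.3 and 6.06 CPM on day 6 (log2 change −2.94 ± 0.84, edgeR adjusted p = 0.030). It was at 95.9, 26.2 and 147 CPM on day 12 and at 323, 118 and 221 CPM on day 18, and these days overlapped (log2 change 1.23 ± 0.78, edgeR adjusted p = 0.29). ELF3 (ENSSSCG00000010922), an ETS factor of epithelia, fell from 184, 371 and 93.6 CPM on day 3 to 35.7, 39.4 and 30.1 CPM on day 6 and rose by 1.98 ± 0.53 on the log2 scale from day 12 to day 18. Of the other ETS factors, ETV4 moved in the same way (−2.15 ± 0.69 and 2.48 ± 0.67), and ETV1 rose to day 18 (2.76 ± 0.51) with no called fall (−1.53 ± 0.51). HEY1, a repressor acting downstream of Notch, and PIM1, a kinase induced by cytokines, both fell and rose, and PIM1 had a narrow spread (−2.15 ± 0.26 and 2.14 ± 0.26).

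Ligands, receptors and signalling proteins made up 8 members, of which 8 fell to day 6, 2 rose to day 12 and 6 rose from day 12 to day 18. NOS1 (ENSSSCG00000009856), the neuronal nitric oxide synthase, had the largest called fall under the naming rule. It was at 194, 159 and 66.5 CPM on day 3 and at 2.96, 1.11 and 1.87 CPM on day 6 (log2 change −5.98 ± 0.93, edgeR adjusted p = 0.0014). It was back by day 12, at 462, 67.9 and 731 CPM (log2 change from day 6 of 7.73 ± 0.99, edgeR adjusted p = 0.00093), with library 2 the lowest by far. On day 18 it was at 1054, 375 and 438 CPM, which overlapped with day 12. IL1A, an inflammatory cytokine, followed the same course, with 3.93, 9.81 and 1.87 CPM on day 3, 0.422, 0.277 and 0.892 CPM on day 6, and 25.8, 13.9 and 13.3 CPM on day 12 (log2 changes −3.06 ± 0.87 and 4.96 ± 0.86).

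The other signalling members had no called rise until day 18. UNC5CL (ENSSSCG00000027922), a membrane protein with a death domain, was at 87.1, 95.1 and 39.0 CPM on day 3, at 23.0, 15.4 and 15.1 CPM on day 6, at 31.4, 27.6 and 46.5 CPM on day 12 and at 193, 155 and 170 CPM on day 18. Its rise from day 12 was 2.22 ± 0.34 on the log2 scale, and day 18 lay above day 3 in every library (1.31 ± 0.33). RET, the receptor of the GDNF family ligands, changed by −2.05 ± 0.38 and 2.54 ± 0.36 over the same steps, and CRABP1, which binds retinoic acid in the cell, by −2.31 ± 0.48 and 2.69 ± 0.49. The cytokine CLCF1 and the guidance molecules SEMA6A and NRP2 also fell and rose.

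**Figure D3:**
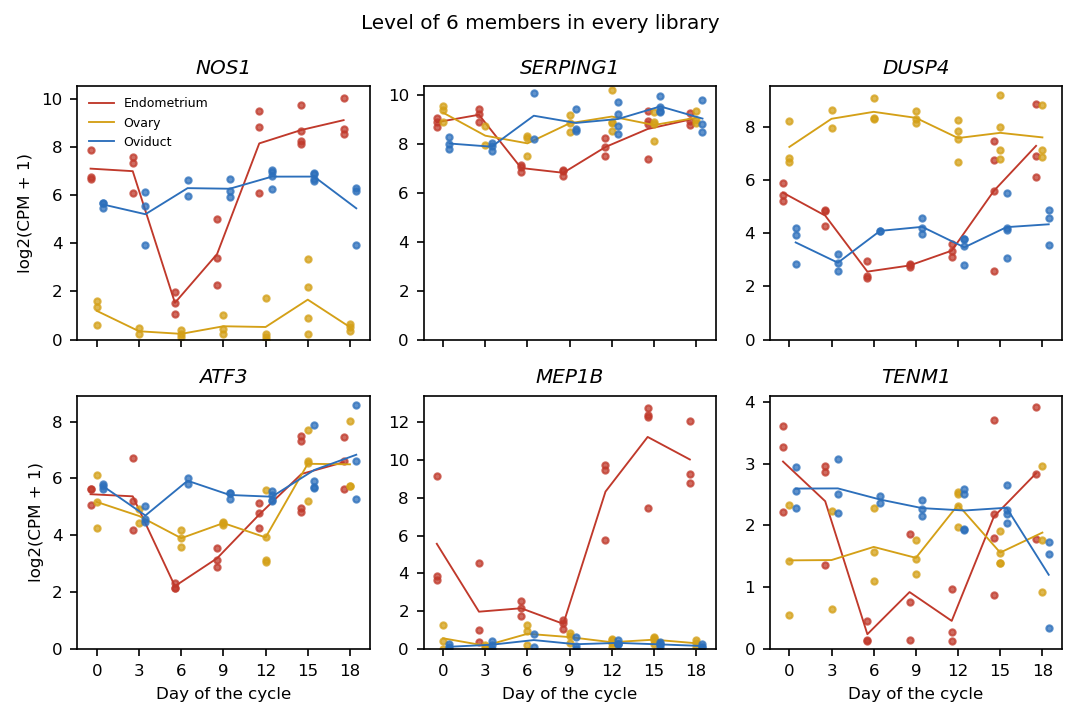
Levels of 6 members as log2(CPM + 1) against day of the cycle, with a point per library and lines through the means of each tissue. In the endometrium NOS1 was high again on day 12, and DUSP4 and TENM1 had no called rise from day 6 to day 12. MEP1B had a called rise from day 6 to day 12 with no called fall before it. The ovary and oviduct held MEP1B at no more than 1.43 CPM.

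Proteins of the matrix, proteases, their inhibitors and adhesion proteins made up 14 members, of which 9 fell to day 6, 4 rose to day 12 and 9 rose from day 12 to day 18. SERPING1 (ENSSSCG00000013181), the inhibitor of the first complement component, was at 683, 604 and 481 CPM on day 3 and at 140, 114 and 132 CPM on day 6. It was at 230, 182 and 303 CPM on day 12 and at 484, 438 and 620 CPM on day 18. The groups did not overlap between neighbouring tested days, and the log2 changes of −2.02 ± 0.24, 0.86 ± 0.23 and 1.03 ± 0.23 were all called (edgeR adjusted p = 0.00040, 0.034 and 0.0099), whereas day 18 differed from day 3 by −0.12 ± 0.23.

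CLEC3B (ENSSSCG00000011299), which encodes the plasminogen-binding protein tetranectin, fell from 375, 356 and 194 CPM on day 3 to 70.4, 77.6 and 117 CPM on day 6 (−1.62 ± 0.35). Its values of 174, 101 and 249 CPM on day 12 and 217, 241 and 239 CPM on day 18 overlapped. TENM1 (ENSSSCG00000012644), a teneurin of cell-to-cell contacts, was at 6.79, 6.24 and 1.56 CPM on day 3, at 0.106, 0.370 and 0.0892 CPM on day 6, and at 0.950, 0.213 and 0.0908 CPM on day 12. All but 2 of these 6 low libraries were at or under 3 counts, and on day 18 the gene was at 2.45, 14.0 and 6.10 CPM. Its log2 changes were −4.43 ± 0.95 to day 6 and 4.03 ± 0.84 from day 12 to day 18.

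MATN4 (ENSSSCG00000007391), a matrilin of the filamentous matrix, was at 9.29, 7.81 and 2.08 CPM on day 3, at 0.422, 0.370 and 0.446 CPM on day 6, and at 0.778, 1.07 and 1.54 CPM on day 12. It was at 1.81, 17.5 and 13.8 CPM on day 18 (log2 change 3.17 ± 0.74 from day 12). On day 15 its values were 0.590, 0.928, 2.38 and 26.0 CPM, so that library 4 alone brought it over the limit of the choice. ICAM1 (ENSSSCG00000013655), the adhesion molecule that leukocyte integrins bind, fell from 36.5, 28.2 and 11.1 CPM on day 3 to 2.53, 1.11 and 1.96 CPM on day 6 (−3.58 ± 0.59) and rose from 4.15, 2.13 and 5.54 CPM on day 12 to 25.8, 9.21 and 20.6 CPM on day 18 (2.17 ± 0.54).

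MEP1B (ENSSSCG00000003732), the beta subunit of the secreted and membrane-bound protease meprin, did not have a called fall. It was at 0.983, 22.5 and 0.312 CPM on day 3 and at 4.86, 2.40 and 3.48 CPM on day 6, so the days overlapped, and its day 0 mean rested on library 2 (578 CPM, against 13.7 and 11.6 CPM). It then stood at 720, 52.7 and 861 CPM on day 12, a log2 rise of 7.24 ± 1.63 from day 6 (edgeR adjusted p = 0.016), and at 4252, 437 and 613 CPM on day 18. On day 15 the values were 4959, 175, 7000 and 5326 CPM.

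ADAMTS1 (ENSSSCG00000012026) and ADAMTS5 are secreted proteases that cleave proteoglycans, and in the RefSeq annotation of assembly Sscrofa11.1 they lie near each other on chromosome 13, with 2 protein-coding genes between them. Different steps were called for each. ADAMTS1 was at 64.2, 72.0 and 39.1 CPM on day 3, at 29.3, 32.5 and 20.0 CPM on day 6, at 174, 64.2 and 225 CPM on day 12 and at 459, 285 and 322 CPM on day 18, and it was called higher on day 12 than on day 6 (2.48 ± 0.44) and on day 18 than on day 3 (2.70 ± 0.44). ADAMTS5 was called lower on day 6 (−2.84 ± 0.45) and higher on day 18 than on day 12 (2.58 ± 0.41). The difference between these 2 genes was not tested.

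MYO10 (ENSSSCG00000016794), a motor protein of filopodia, was at 175, 345 and 212 CPM on day 3 and at 164, 160 and 103 CPM on day 6 (−0.59 ± 0.45, not called), and rose from 335, 105 and 503 CPM on day 12 to 1036, 1146 and 1333 CPM on day 18 (1.80 ± 0.46). ITGB6 (ENSSSCG00000015886), an epithelial integrin subunit, was at 3.97, 0.853 and 3.45 CPM on day 12 and at 13.02, 28.6 and 27.8 CPM on day 18 (2.96 ± 0.66), with no called fall to day 6 (−2.03 ± 0.70). Of the rest of this group, the coagulation factor gene F5 and the protocadherin gene PCDH19 fell and rose, and SERPINB5 (maspin) was not called in any of the 4 comparisons.

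Transporters and enzymes made up 6 members, of which 3 fell to day 6 and 3 rose from day 12 to day 18. FXYD3 (ENSSSCG00000024666), a regulator of the sodium-potassium pump, was at 22.8, 39.5 and 14.9 CPM on day 3, at 1.37, 2.13 and 0.624 CPM on day 6 and at 21.0, 7.68 and 47.9 CPM on day 12 (log2 changes −4.04 ± 0.72 and 4.21 ± 0.72). SLC4A4 (ENSSSCG00000008943), a sodium bicarbonate cotransporter, was still at 17.1, 13.6 and 6.08 CPM on day 12 and stood at 253, 90.9 and 73.9 CPM on day 18 (3.51 ± 0.64). PFKP (ENSSSCG00000011158), a phosphofructokinase of glycolysis, fell (−1.34 ± 0.41) and rose (1.42 ± 0.40), as did PACC1, a chloride channel opened by acid (−1.82 ± 0.43 and 2.31 ± 0.44).

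SOD3 (ENSSSCG00000028814), the superoxide dismutase of the extracellular space, was at 79.4, 188 and 25.8 CPM on day 3 and at 12.98, 10.4 and 8.56 CPM on day 6, without overlap, but its log2 change of −3.01 ± 1.07 was not called (edgeR adjusted p = 0.073). Its values of 214, 7.25 and 481 CPM on day 12 reached from below the lowest library of day 6 to more than those of day 3. The rise from day 6 to day 12 was called (4.47 ± 1.14, edgeR adjusted p = 0.027). On day 18 SOD3 was at 2384, 1096 and 1409 CPM (4.17 ± 1.11 above day 3, called). Its rise from day 12 to day 18 was not called (2.71 ± 1.03, edgeR adjusted p = 0.086). SLC39A2 (ENSSSCG00000029754), a zinc importer, was at 114, 277 and 82.7 CPM on day 3, at 93.7, 67.7 and 58.8 CPM on day 6, at 271, 65.4 and 181 CPM on day 12 and at 785, 331 and 424 CPM on day 18, and none of its 4 comparisons was called.

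The remaining 4 members with a symbol were BSPH1, of the binder of sperm protein family, TRIM29, FAM124B and MAB21L3. BSPH1 (ENSSSCG00000003123) was at 0.446 CPM or less on day 3, at 0 counts in the 3 libraries of day 6, at 1.38, 0.213 and 1.997 CPM on day 12 and at 13.44, 11.5 and 18.9 CPM on day 18. Day 12 was at least 4.17-fold higher than day 6, with the group mean set against 3 counts, and the rise from day 12 to day 18 was 3.49 ± 0.67 on the log2 scale. FAM124B was called in each of the 4 comparisons, lower on day 6 (−2.07 ± 0.57) and then higher on day 12 (3.11 ± 0.57) and day 18 (1.99 ± 0.49), where it ended above day 3 (3.03 ± 0.52).

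Of the 14 members without a symbol, 8 fell to day 6, 4 rose to day 12, 9 rose from day 12 to day 18 and 1 fell. The exceptions to the common course are given here because of their values. ENSSSCG00000030074 was at 0.211, 0.462 and 0.535 CPM on day 6, at 14.2, 16.8 and 19.5 CPM on day 12 and at 7.68, 4.65 and 3.40 CPM on day 18, so that it peaked on day 12 among the tested days (5.29 ± 0.55, then −1.74 ± 0.43). ENSSSCG00000026123 was at 112, 152 and 124.9 CPM on day 3 and at 47.1, 30.4 and 47.3 CPM on day 18. It was the sole member called lower on day 18 than on day 3 (−1.55 ± 0.39). ENSSSCG00000011850 had both a large fall and a large rise, from 219, 416 and 70.7 CPM on day 3 to 5.59, 3.97 and 4.37 CPM on day 6, and from 19.4, 7.47 and 31.8 CPM on day 12 to 1069, 585 and 415 CPM on day 18 (−5.48 ± 0.75 and 5.07 ± 0.72).

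**Figure D4:**
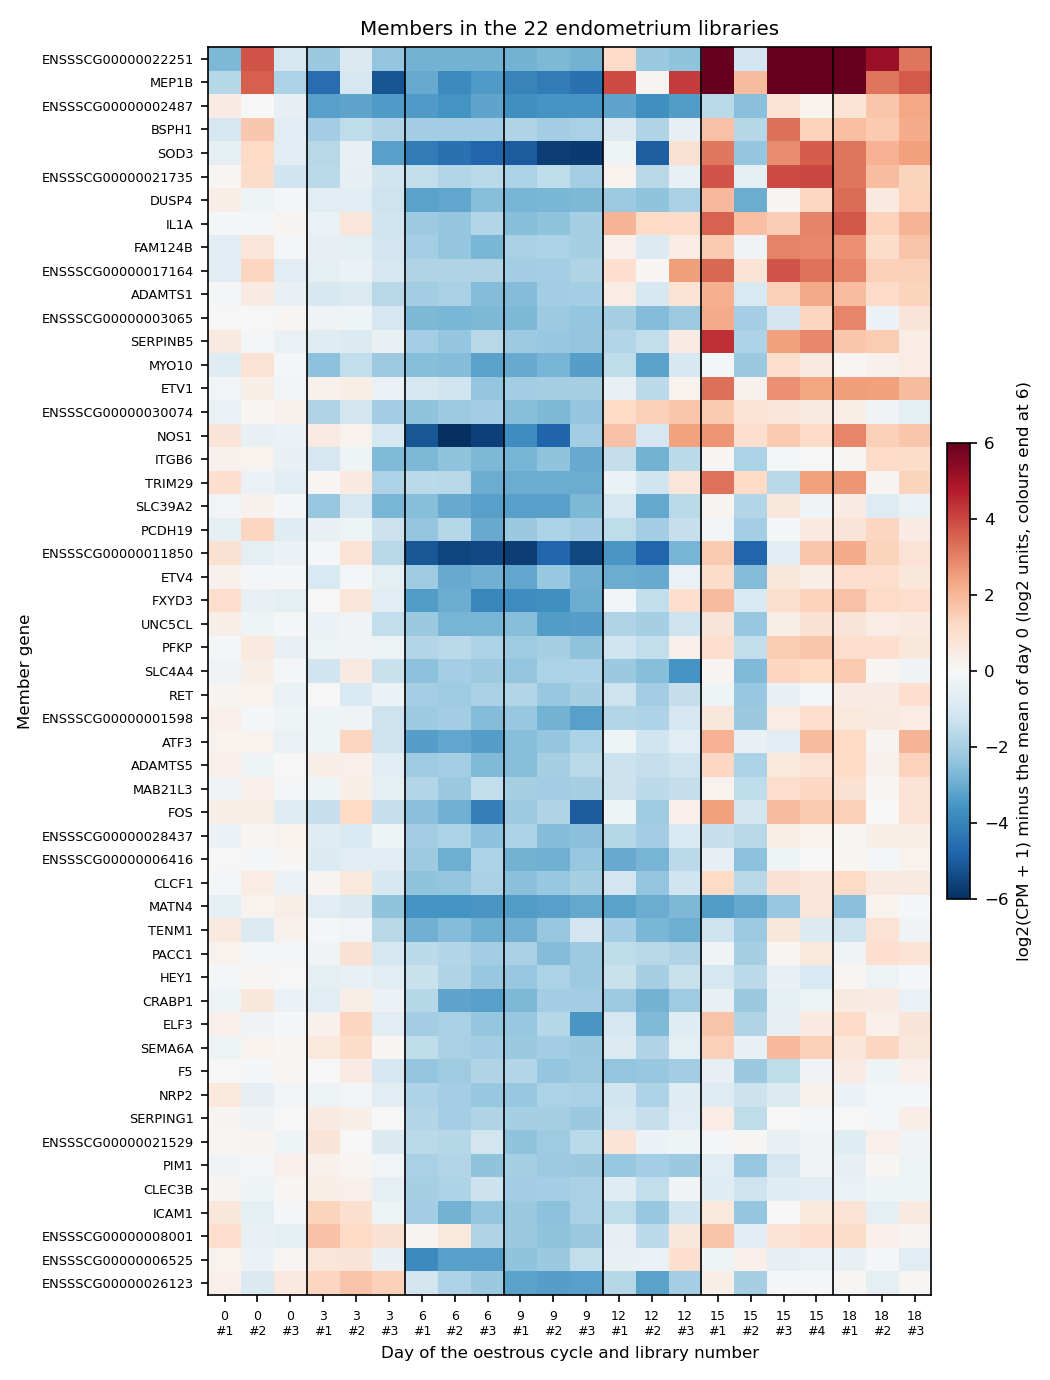
Shown are 53 of the members (rows) in the 22 endometrium libraries (columns, by day and library number), coloured by log2(CPM + 1) minus the day 0 mean, with rows ordered by the fitted change from day 3 to day 18. The block of low values spans days 6 and 9, and library 2 of day 12 and library 2 of day 15 are lower than their neighbours in most rows.

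The same steps were tested in the other tissues. In the ovary 46 members passed the filter on low counts. The 8 that did not were BSPH1, SERPINB5, NOS1, ITGB6, FXYD3 and 3 genes without a symbol. From day 3 to day 6 the median member changed by 0.50 on the log2 scale and edgeR called 0 of 46, as it did 0.0% of the 14993 ovary genes, although 7 had an unadjusted p under 0.05 and DESeq2 called 1. From day 12 to day 18 the median was 0.30 and again 0 were called, where 0.0% of all genes were. There 10 were at an unadjusted p under 0.05, 5 were called with DESeq2, 10 without library 1 of day 12 and 5 without library 2 of day 18. A count of 0 in the ovary therefore cannot be read as a lack of change.

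In the oviduct 52 members were tested, all but MEP1B and ENSSSCG00000022251. From day 3 to day 6 there were 0 calls (10 members had an unadjusted p under 0.05, and DESeq2 called 1), where 0.0% of the 15347 oviduct genes were called, and the median log2 change was 0.22. From day 12 to day 18, 9 members rose (10.6% of all genes called higher) and 2 fell (6.46% called lower), and the median was 0.37. The risers with a symbol were ATF3 (2.24 ± 0.52), MATN4 (1.99 ± 0.44), ICAM1 (1.93 ± 0.39), RET (1.78 ± 0.48), ETV4 (1.49 ± 0.32), ADAMTS1 (1.46 ± 0.40) and DUSP4 (1.23 ± 0.35), and in the endometrium the same step was called for each of these except ADAMTS1 (1.14 ± 0.42). The oviduct counts of 9 and 2 out of 52 were not tested against the shares of all genes and are not read as a trait of the members. The number called in either direction was 7, 5 and 7 without library 2, 3 or 4 of day 12 and 6 without library 2 of day 18. It was 6 with only the compared days in the fit and 2 with the column number as a replicate block.

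ADAMTS5 went the opposite way in the oviduct, from 22.9, 23.3, 23.7 and 11.3 CPM on day 12 to 7.48, 4.17 and 10.1 CPM on day 18 (−1.29 ± 0.40), while in the endometrium it rose from 3.46, 3.09 and 3.63 CPM to 24.0, 12.0 and 27.6 CPM. The difference between the tissues was 3.89 ± 0.79 on the log2 scale (edgeR adjusted p = 0.0028).

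**Figure D5:**
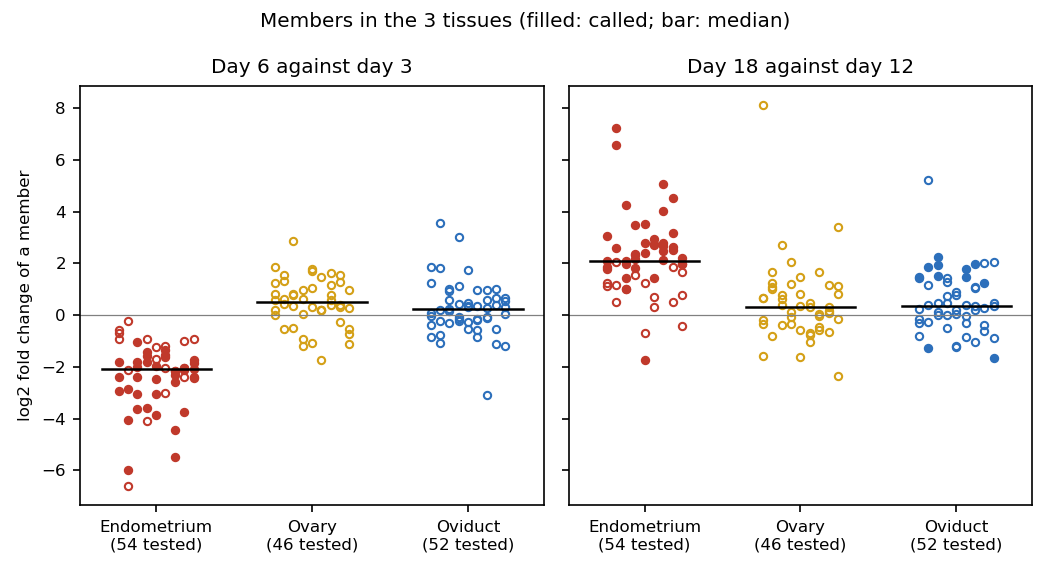
Log2 fold change of each tested member from day 3 to day 6 (left) and from day 12 to day 18 (right) in the 3 tissues; filled points were called at an adjusted p under 0.05, open points were not, and bars are medians. Medians were −2.10 and 2.10 in the endometrium, 0.50 and 0.30 in the ovary, and 0.22 and 0.37 in the oviduct.

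The difference between tissues was tested itself, in a fit of the 36 libraries of the 3 tissues on the 4 tested days. The change from day 3 to day 6 was lower in endometrium than in ovary in 17 of 54 members, where 2.48% of all genes were called so, and lower than in oviduct in 15, where 2.12% were. The change from day 12 to day 18 was higher in endometrium than in ovary in 15 members (4.76% of all genes) and than in oviduct in 16 (3.45%). In the opposite direction 0 members were called in each, where 1.72%, 2.34%, 6.63% and 5.52% of all genes were. At an unadjusted p under 0.05, in either direction, the numbers were 38, 36, 24 and 25. These comparisons share the endometrium libraries. The tissues of a day came from the same gilts, which this fit does not use, and with day and column number together as a block the 17 became 8 and the other counts 16, 15 and 15. The 8 members under the ovary filter and the 2 under the oviduct filter entered this fit through the other tissues. SERPINB5, at a mean of 0.227 CPM in the ovary, was among the 17. That level is near 3 counts, so its call does not measure a change in the ovary. How many such members are in the other counts is not given here.

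For the fall, RET and ICAM1 had the smallest adjusted p against the ovary among the members with a symbol (−3.88 ± 0.73 and −4.81 ± 0.90), where RET was at 4.31 and 5.61 CPM on day 3 and at 10.17, 19.7 and 13.5 CPM on day 6. NOS1, FXYD3 and SERPING1 differed from the oviduct (−6.53 ± 1.13, −5.92 ± 1.09 and −3.29 ± 0.57). Oviduct NOS1 was at 69.3, 46.7 and 14.2 CPM on day 3 and at 97.0 and 62.1 CPM on day 6, while the ovary held it at no more than 0.375 CPM on these days. For the rise, DUSP4 differed from the ovary by 4.56 ± 0.85 and from the oviduct by 3.34 ± 0.84, and TENM1 by 4.67 ± 1.10 and 5.24 ± 1.12. Single libraries moved the count against the ovary for the fall. It was 3 and 5 without library 1 or 3 of ovary day 3, 9 and 7 without library 1 or 2 of endometrium day 3, 11, 8 and 8 without library 1, 2 or 3 of endometrium day 6, and 11 and 9 without library 1 or 2 of ovary day 6. Against the oviduct it was 9 without library 2 of endometrium day 3 and 6 without library 3 of oviduct day 6.

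Averaged over the tested days, the endometrium was the tissue with the highest level in 32 members, the oviduct in 13 and the ovary in 9. DUSP4 is an example of the last, at 101 to 543 CPM in the ovary on these days.

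The 29 genes that met the rule except for the day 15 criterion, and so were still low on that day, are set beside the members here by their values. Of these, 28 were tested, and 20 were called lower on day 6 than on day 3, where 9.97% of all genes were. Their median log2 change was −2.21 beside −2.10 in the members. From day 6 to day 12 their median change was −0.13, beside 1.11 in the members. At this step 2 were called higher (6.79% of all genes) and 3 lower (5.62%). From day 12 to day 18, 18 were called higher (9.14% of all genes) and 1 lower (11.2%), with a median of 2.24 beside 2.10. Day 18 against day 3 gave a median of −0.48 beside 1.23, with 1 called higher (3.65% of all genes) and 1 lower (3.98%). The median member thus ended above day 3 and the median gene of the other set below it. The split by day 15 was made on a neighbouring day, and no test of the difference between the sets was run.

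Summed markers of several cell types of the endometrium also differed between the tested days, and their part in the results was not tested. A fall in bulk tissue can be fewer cells of a type or less RNA per cell, which cannot be told apart. The summed level of 4 stromal markers was 3628 to 4429 CPM on day 3, 1586 to 2240 on day 6, 1998 to 2491 on day 12 and 3006 to 5216 on day 18. Of the 4, VIM was called lower on day 6 and higher on day 18 than on day 12, and PDGFRA was called higher on day 12 than on day 6. The 2 endothelial markers KDR and PECAM1 summed to 376 to 448 CPM on day 3, 156 to 177 on day 6, 188 to 436 on day 12 and 422 to 519 on day 18. Both were called lower on day 6, and PECAM1 was called higher on day 18 than on day 12. The 2 leukocyte markers PTPRC and CD68 fell from 51.7 to 124 CPM on day 3 to 16.9 to 27.4 on day 6 and were at 18.7 to 36.1 on day 18, so they did not come back. The 3 ciliated cell markers summed to 305 to 476 CPM on day 3, 236 to 244 on day 6, 122 to 242 on day 12 and 313 to 374 on day 18, without overlap between days 3 and 6 or days 12 and 18, although no single marker of the 3 was called. The 4 smooth muscle markers, at 99.4 to 439 CPM on day 3, 150 to 272 on day 6, 254 to 562 on day 12 and 372 to 466 on day 18, overlapped at both steps.

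The 4 epithelial markers, at 2139 to 2297 CPM on day 3, were at 2149 to 4855 on day 6, 2196 to 3515 on day 12 and 1841 to 2245 on day 18. KRT8 was called higher on day 6, and on day 18 EPCAM was called higher and KRT8 and KRT18 lower than on day 12. CYP11A1, the marker of steroid-producing cells that was found, was at 1.36 to 7.70 CPM in the endometrium, against 167 to 9045 CPM in the ovary of day 12. Every marker found was above 0 on each day in the endometrium, and no marker was a member.

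Other pathways of the cycling endometrium are given from lists of known genes. Of 7 oestrogen response genes found, IGF1 and STC2 were called higher and TFF3 lower on day 6 than on day 3, GREB1 higher and PGR lower on day 12 than on day 6, and OXTR and TFF3 higher and IGF1 and ESR1 lower on day 18 than on day 12. Of 9 cell division genes, 6 (MCM2, MCM5, TOP2A, AURKB, CCNB1 and BUB1) were called lower on day 12 than on day 6, and that was their only call in the 4 comparisons. Of 7 genes of the extracellular matrix, 3 (MMP2, LOX and FN1) were called lower on day 6 than on day 3. On day 12, 6 were called higher than on day 6, these 3 among them. On day 18 against day 3, GREB1, TIMP1 and COL1A2 were called higher and MMP2 lower. Of all genes tested, 8.91% were called higher and 9.97% lower from day 3 to day 6, and 6.79% and 5.62% from day 6 to day 12. From day 12 to day 18 the shares were 9.14% and 11.2%, and from day 3 to day 18 they were 3.65% and 3.98%. The lists were not tested as sets.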

How the data were processed

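The authors deposited raw counts, as whole numbers for each Ensembl gene in each library, unnormalised and unpooled. The first 13 bases of each read had been removed and reads mapped to the pig genome with TopHat2. FeatureCounts is named in the submitters' processing notes, and whether it used strand is not given in the sources used here. Reads of genes that overlap another annotated gene (11 of 39 members found in RefSeq) may be shared. Every column was assigned to a tissue and day by its name. Of the 67 samples of the labels, 66 had a column, and 1 (endometrium, day 12) was not analysed here. The design text names 23 animals and the methods 3 gilts per day, so libraries of a group of 4 were taken as separate animals without further evidence, and p-values measure the spread between these libraries. Among 74 pairs of the same group 0 were identical, with a chi-squared per degree of freedom of at least 9.10, where counting noise gives about 1.

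The members and lists were chosen with earlier results of these data known. Symbols came from a reference table that matched 11804 of 25322 identifiers. Differential expression was tested with edgeR 4.0.16 in R 4.3.3 (TMM, filterByExpr, estimateDisp, glmQLFit with robust estimation and glmQLFTest) on days 3, 6, 12 and 18 of each tissue, and across tissues with interaction terms, with Benjamini-Hochberg adjustment over all genes of a comparison. Standard errors were obtained by dividing the size of the log2 change by the root of the test statistic. On simulated counts for the endometrium on days 3 and 6 (15089 genes, 200 changed by 4-fold or 8-fold), 178 changed genes were recovered with 12 false calls. Recovery of smaller changes, or with as many genes changed as were called in the data, was not simulated. Floors of 3 counts cover counting error only, since reads are not independent molecules.

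Named genes were the 12 members with the largest mean CPM over days 3 and 18 of the endometrium, the 6 largest called falls to day 6 and the 6 largest called rises from day 12 to day 18, without overlap and with 10 counts or more per library on the higher day. The rule was written for 80% of members with a symbol, and 74.1% had one, so it was applied to those. Other genes were named after their values were seen, and the values of 1 member are not reported here. The tissues of a day came from the same gilts, but which column belongs to which gilt is not given. Same-numbered libraries of a day in different tissues had deviations correlated at −0.144 to 0.411 (median 0.13, 43 of 63 pairs over 0.1), and those of a tissue on different days at −0.578 to 0.697 (median −0.018, 46 of 179 over 0.1). Since not every pair was over 0.1, the numbers were not taken as pairs in the reported fits, and for tissues of a day the pairing was not settled. Alternatives were DESeq2 1.42.0, its size factors used within edgeR, unfiltered counts, all 7 days or only 2 in the fit, a block, and each library left out. Python 3.11.15 was used with pandas 2.3.3 and matplotlib 3.10.9.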

Additional observations from a re-analysis of the deposited data

Results flagged for a closer look

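The levels of 53 members in the 4 libraries of endometrium day 15, and the mean level of all members in each group of 4 libraries, made 58 sets. In 5 of these a library was farther from the rest than Dixon's 95% limit. The limit is passed in about 1 of 20 independent sets, but these sets share libraries. Day 15 of the endometrium was also used to choose the members, so the 5 are a description. MATN4 was at 25.95 CPM in library 4 of endometrium day 15, against 0.59 to 2.382 CPM in the others. Library 2 was the low library in the other sets. There CLEC3B was at 118.6 CPM (others 173.2 to 174.8), ITGB6 at 2.506 CPM (others 11.45 to 13.08), ENSSSCG00000021735 at 3.991 CPM (others 98.14 to 115.0), and the mean log2(CPM + 1) of the 54 members was 3.79 (others 5.94 to 6.34).

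The change in the endometrium differed from that of another tissue by the interaction term of the edgeR fit. Members called lower from day 3 to day 6 numbered 17 against the ovary (2.48% of all genes) and 15 against the oviduct (2.12%). Members called higher from day 12 to day 18 numbered 15 (4.76%) and 16 (3.45%). With single libraries left out, these counts ranged over 3 to 20, 6 to 18, 10 to 20 and 11 to 20, in that order. The 17 was also lower with day and column number together as a block, as given below. Members under the filter on low counts in the ovary or the oviduct entered this fit through the other tissues. SERPINB5, near 3 counts in the ovary, was among the 17. How many such members are in the other counts is not given here.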

How the results depend on the processing

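For the 54 members in the 4 endometrium comparisons, no called value changed sign under the alternatives run, while 3579 values stood on the same side of the threshold, 213 lost the call and 87 gained one. Single members were not followed under the alternatives in the ovary, the oviduct or the interaction fits. The count of members called changed by over 1.5 times as follows, and the cause was not tested. With DESeq2 it was 24 rather than 15 from day 6 to day 12 in the endometrium, and 1, 5 and 1 rather than 0 in the ovary from day 3 to day 6, the ovary from day 12 to day 18 and the oviduct from day 3 to day 6. With all 7 days in the fit it was 2 rather than 0 in the ovary from day 12 to day 18, and 11 rather than 17 for the fall against the ovary. With only the compared days in the fit it was 6 rather than 11 in the oviduct from day 12 to day 18. With a pseudocount of 0.1 the rule found 86 genes rather than 54. It found 40 after TMM scaling (35 of them members) and 46 with medians (31 of them members).

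With the column number as a replicate block, the oviduct from day 12 to day 18 had 2 calls rather than 11. Endometrium counts were 33 (day 3 to 6), 13 (day 6 to 12), 36 (day 12 to 18) and 13 (day 3 to 18). A block of day and number together, added after the data were seen, gave 8 rather than 17 for the fall against the ovary and moved the other 3 interaction counts to 16, 15 and 15.

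With each library left out in turn, the endometrium counts ranged over 25 to 40 (day 3 to 6), 8 to 23 (day 6 to 12), 30 to 41 (day 12 to 18) and 5 to 23 (day 3 to 18). The ranges were 0 to 0 in ovary and oviduct from day 3 to 6, and 0 to 10 and 5 to 12 from day 12 to 18. Interaction counts ranged over 3 to 20 (ovary) and 6 to 18 (oviduct) for the fall, and 10 to 20 and 11 to 20 for the rise. Members ranged from 47 to 68 and their day 15 level from 113.4% to 181.9% of day 0. Low genes such as TENM1 and BSPH1, near 3 counts on days 6 and 12, are limited by depth.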
